A study of Mus musculus with 24 samples.

Results

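Radial glia and astrocyte genes were described in RNA sequencing of mouse cells differentiated from embryonic stem cells (ESCs) towards neurons. The set holds 10 of the 22667 genes listed in the deposited expression table, taken by their symbols. They are Gfap, Aqp4, S100b, Aldh1l1, Slc1a2, Slc1a3, Glul, Fabp7, Nes and Vim. No measured value entered the rule, but the set was chosen with earlier results of these data known. WT cells (genotype wt/wt) were compared with slow/slow cells (genotype Polr2a[R749H/R749H]), in which both copies of the gene for the largest subunit of RNA polymerase II carry an arginine-to-histidine substitution that the study describes as slowing elongation. Slow/slow ESCs were made by gene targeting, the labels do not give the number of clones, and a genotype and a cell line cannot be told apart. Each genotype was sampled as ESCs kept in 2i medium with LIF, as neural progenitor cells (NPCs) at day 7 of monolayer culture, as PSA-NCAM+ cells, collected at day 10 on beads that bind polysialic acid on the adhesion molecule NCAM, and as neurons, which were replated at day 7 and grown for 14 more days with ascorbic acid and cAMP. There were 3 libraries in each of the 8 groups, 24 in all, with totals of 32974432 to 104466886 counts. WT cultures were started at 10000 cells per cm2 and slow/slow cultures at 30000 cells per cm2, so that density and genotype cannot be told apart in NPCs, PSA-NCAM+ cells and neurons. The neuron cultures were not sorted.

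Radial glia are the neural stem cells of the developing brain, which give rise to neurons and later to astrocytes, and neural progenitors in culture share many of their genes. Nes and Vim code for intermediate filament proteins of neural stem cells, Vim also of many other cells, and Fabp7 codes for a fatty acid binding protein typical of radial glia. Astrocytes take up the transmitter glutamate through the transporters encoded by Slc1a2 and Slc1a3 and turn it into glutamine with the glutamine synthetase encoded by Glul. Aldh1l1, a folate enzyme, Aqp4, a water channel, S100b, a calcium-binding protein, and Gfap, an intermediate filament protein, are used as markers of more mature astrocytes.

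Of the 9 genes that could be tested, 6 rose between NPCs and neurons in both genotypes. Of all genes tested 41.4% rose in WT and 38.4% in slow/slow cells, and the share that rose in both was not computed. Differences between genotypes varied with the stage. In slow/slow progenitors, both NPCs and PSA-NCAM+ cells, the radial glia genes Fabp7 and Nes and the glutamate transporter genes Slc1a2 and Slc1a3 were higher than in WT cells. In slow/slow neurons Gfap, Aldh1l1, Slc1a3 and Glul were lower and Nes higher. Aqp4 was also called higher there, a call lost whichever neuron library was left out. No difference in Fabp7 or Slc1a2 passed the test in neurons, and an alternative exon near the 3 prime end of Slc1a2 was included more often. Aldh1l1 was lower in slow/slow cells at every stage.

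Sequences are shown for the 2 genes with the widest changes between genotypes and for that exon. They are taken from RefSeq (promoters, GRCm38.p6) and GENCODE vM21 (exon, GRCm38). Of the 10 genes, 9 were matched in the promoter table. The promoter stretches lie upstream of the RefSeq start and outside every annotated exon, so 42 bases that lie in a GENCODE exon were left out for Fabp7. That of Gfap falls inside the wider span of the GENCODE gene, which begins further upstream. Capitals mark every match on either strand to the motifs of RBPJ, nuclear factor I and the CCAAT box. The motif TGGGAA of RBPJ, the DNA-binding factor of Notch signalling (TTCCCA on the other strand), was in the 250 bases upstream of 21.5% of 27025 genes. The short motif TTGGC of nuclear factor I was in 41.9%. The CCAAT box, which on the other strand can overlap that motif by several bases, was in 34.5%. Gfap is shown from the minus strand of chr11:102897201-102897450, and Fabp7 from the plus strand of chr10:57784673-57784880. The exon of Slc1a2 is shown from the plus strand of chr2:102780717-102780752, its coding bases only, with the stop codon in capitals.
Gfap promoter: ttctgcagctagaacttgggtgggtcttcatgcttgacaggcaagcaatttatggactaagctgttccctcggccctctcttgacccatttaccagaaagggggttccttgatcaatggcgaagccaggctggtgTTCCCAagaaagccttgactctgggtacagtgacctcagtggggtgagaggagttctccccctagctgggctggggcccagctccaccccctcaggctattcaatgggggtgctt
Fabp7 promoter: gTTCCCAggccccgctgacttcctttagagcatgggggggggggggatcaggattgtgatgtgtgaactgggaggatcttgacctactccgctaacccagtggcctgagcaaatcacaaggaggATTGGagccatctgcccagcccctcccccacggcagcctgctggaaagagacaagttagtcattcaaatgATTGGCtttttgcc
Slc1a2 exon: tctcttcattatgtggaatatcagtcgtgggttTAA

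The Gfap stretch held 1 match, to RBPJ, and the Fabp7 stretch held 1 match to RBPJ and 2 to the CCAAT box, the second of which overlaps the nuclear factor I motif. Searches on both strands for TATAAA (13% of all promoters), the STAT motif TTCNNNGAA (7.18%) and the SOX motif ACAATG (11%) gave no match in either, nor did the GC box GGGCGG (32.9%) or the palindromic nuclear factor I site (0.0407%). The STAT motif was found in 1 of the 9 promoters, that of Slc1a3, TATAAA in those of Slc1a3 and Vim, and the GC box in those of Aldh1l1, Slc1a3, Glul and Nes. CpG dinucleotides, the sites of DNA methylation, were few in the promoters of Gfap, S100b and Slc1a3 (2 each in 250 bases) and Slc1a2 (1), against a median of 6 over all promoters, and more frequent in those of Glul and Nes (15 each). Like that of Gfap, the stretches of Slc1a2 (chr2:102706188-102706437), Aldh1l1 (chr6:90550543-90550792) and Vim (chr2:13574061-13574310) fall inside the wider spans of their GENCODE genes. Those genes begin further upstream, and the bases before their GENCODE starts were not searched. A match or its absence is a description of these letters only.

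In GENCODE vM21 (GRCm38) Gfap spans chr11:102887336-102900912 on the minus strand, Fabp7 chr10:57784881-57788450 on the plus strand and Aldh1l1 chr6:90486427-90600203 on the plus strand. Slc1a2 spans chr2:102658659-102790784 and Vim chr2:13573927-13582826, both on the plus strand, and Slc1a3 spans chr15:8634124-8710764 on the minus strand. Glul spans chr1:153899944-153909723, Nes chr3:87971078-87980451 and S100b chr10:76253853-76261159, all on the plus strand. Annotated genes on the opposite strand overlap Gfap, Aqp4, S100b, Aldh1l1, Slc1a2 and Glul, and small or uncertain annotated genes on the same strand overlap Aldh1l1, Slc1a3 and Glul. The strand setting of the counting is not given in the sources used here, so reads of such partners cannot be told apart from those of the 10 genes.

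The levels of the 10 genes were first set side by side per length, using the authors' mean RPKM of each group, which carries no spread. In WT ESCs Vim was the highest at 107 RPKM, followed by Glul at 32.4 and Aldh1l1 at 11.5, while Nes stood at 2.99 and the other 6 genes were under 1. In WT neurons Fabp7 led at 894 RPKM, above Vim at 451, Glul at 108, Nes at 45.9, Slc1a3 at 35.7, Slc1a2 at 10.3 and Aldh1l1 at 7.73. Gfap (0.603 RPKM), Aqp4 (0.303) and S100b (0.0933) were at the low end even in WT neurons. In slow/slow neurons the same 7 genes led in the same order, from Fabp7 at 908 RPKM to Aldh1l1 at 1.93, whereas Aqp4 (0.757) stood above Gfap (0.0600).

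**Figure D1:**
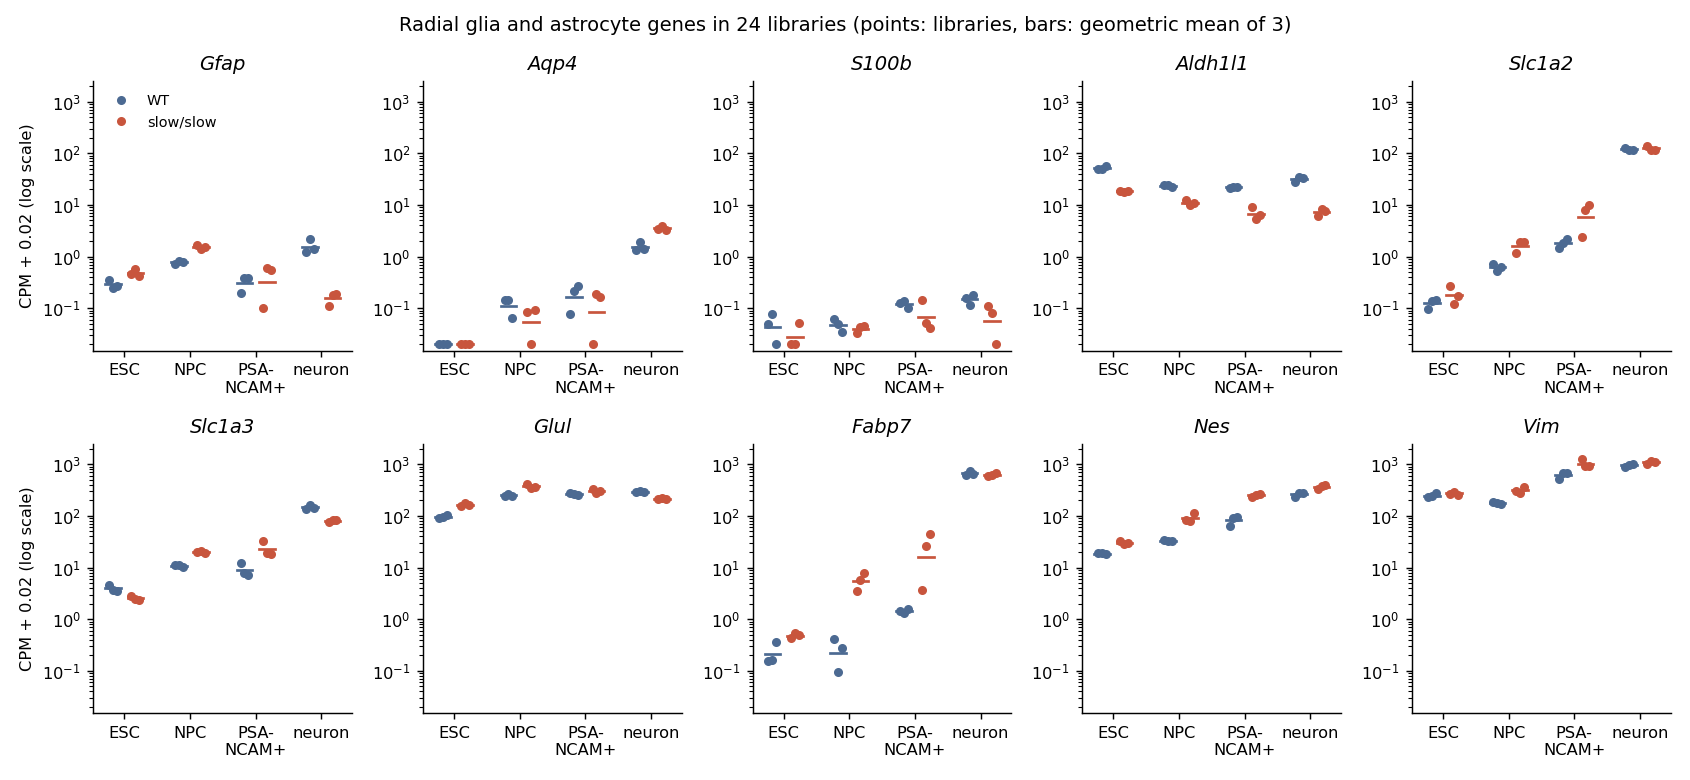
Level of each of the 10 genes in all 24 libraries, as CPM (counts scaled by library size) plus 0.02 on a log axis, by stage, with WT in blue and slow/slow in red. Points are libraries and bars geometric means of 3. Slc1a2 and Fabp7 stand above 100 CPM only in neurons, Gfap in slow/slow neurons lies under every WT neuron library, and Aldh1l1 is lower in slow/slow cells at each stage.

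The question put to the design was whether each gene differed between slow/slow and WT cells at a stage. The counts were tested with edgeR's quasi-likelihood test in a model of all 24 libraries, with Benjamini-Hochberg adjustment over the 16627 genes that passed the filter on low counts (FDR), and a gene with an FDR under 0.05 was called. Of the 10 genes 9 passed the filter. S100b did not, with 0 to 17 counts per library, and is given by its values alone. Levels are CPM scaled by edgeR's TMM method, in the order of replicates 1 to 3, and changes are log2 of slow/slow over WT with the standard error (SE). In bulk libraries, fewer cells of a type and less RNA per cell cannot be told apart.

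The labelled stages were checked by marker lists. The summed level of 6 pluripotency markers was 7175 to 7456 CPM over WT ESC libraries and 103.8 to 132 CPM in WT neurons. It was still 2160 to 2230 CPM in WT NPCs and 1471 to 2001 CPM in WT PSA-NCAM+ cells. In slow/slow cells it was lower at these stages, at 1151 to 1275 and 727 to 756 CPM. The sum of 8 neuron markers stood at 175 to 207 CPM in WT ESCs, higher than in WT progenitors. It was 88.2 to 95.2 in WT NPCs, 67.7 to 94.0 in WT PSA-NCAM+ cells and 3886 to 4245 in WT neurons. WT PSA-NCAM+ cells thus carried neuron markers no higher than the top of the range of WT NPCs. The PSA-NCAM+ libraries varied more than the others, with a median SD of log2 CPM of 0.24 and 0.31 in WT and slow/slow cells against 0.08 to 0.13 in the other groups. The lowest correlation between libraries of a group was 0.960 in slow/slow and 0.978 in WT PSA-NCAM+ cells and at least 0.994 elsewhere. Calls there that depend on 1 library are given with and without it.

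Fabp7 showed the widest difference in progenitors. In NPCs it stood at 0.395, 0.0755 and 0.255 CPM in WT and 3.53, 5.80 and 7.74 CPM in slow/slow libraries. Every slow/slow library lay above every WT library, and the change was 4.60 ± 0.73 (FDR = 2.82e-05), or 24.3-fold. In PSA-NCAM+ cells it stood at 1.42, 1.32 and 1.55 CPM in WT and 3.63, 25.7 and 43.8 CPM in slow/slow libraries. Slow/slow replicate 1 was the lowest of its group but still above all WT libraries, the change was 4.10 ± 0.55 (FDR = 3.33e-06), and without that replicate it was 4.62 (FDR = 3.6e-12). In neurons the groups overlapped, at 627, 753 and 648 CPM in WT and 583, 629 and 665 CPM in slow/slow libraries, and the change was -0.11 ± 0.44 (FDR = 0.853), with a 95% interval from -1.03 to 0.81. In ESCs Fabp7 was at 0.137, 0.143 and 0.341 CPM in WT and 0.407, 0.511 and 0.465 CPM in slow/slow libraries. Every slow/slow library was higher in CPM, whereas the counts, 5 to 25 per library, overlapped. Its change of 1.12 ± 1.11 (FDR = 0.446) did not pass the test in the model of all libraries but did in a fit of the ESC libraries alone, where it was 1.14 (FDR = 0.0116).

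Nes was higher in slow/slow cells at all 4 stages. ESC libraries held 19.3, 18.8 and 18 CPM in WT and 32.2, 29.1 and 29.9 CPM in slow/slow cells. NPC libraries held 34.1, 32.9 and 32.3 CPM in WT and 83.6, 80.5 and 115 CPM in slow/slow cells. The groups did not overlap at either stage, with changes of 0.70 ± 0.13 (FDR = 0.000299) and 1.49 ± 0.13 (FDR = 2.19e-08). In PSA-NCAM+ cells Nes stood at 64.6, 89.9 and 95.7 CPM in WT and 229.5, 259 and 267 CPM in slow/slow libraries, and in neurons at 236, 278 and 283 CPM in WT and 339, 373 and 390.4 CPM in slow/slow libraries. All slow/slow libraries were again above all WT libraries, by 1.59 ± 0.13 (FDR = 6.94e-09) in PSA-NCAM+ cells and by 0.47 ± 0.13 (FDR = 0.00458) in neurons.

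Vim, expressed in all 24 libraries at 167 to 1283 CPM, was higher in slow/slow NPCs, at 299.8, 278 and 360.3 CPM against 183, 176 and 167 in WT, a change of 0.83 ± 0.13 (FDR = 2.76e-05). In PSA-NCAM+ cells it stood at 1283, 917 and 936 CPM in slow/slow and 513, 668 and 693 CPM in WT libraries, a change of 0.74 ± 0.13 (FDR = 8.37e-05). Neither stage had overlapping groups. In ESCs and neurons the groups overlapped, and the changes of 0.14 ± 0.13 (FDR = 0.425) and 0.18 ± 0.13 (FDR = 0.252) did not pass the test, although in neurons upper-quartile scaling gave 0.33 (FDR = 0.0495) and a fit of the neuron libraries alone 0.26 (FDR = 0.00609).

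The glial glutamate transporter genes were higher in slow/slow progenitors but not in slow/slow neurons. Slc1a2, whose product clears most of the glutamate of the adult forebrain, was at 4 to 11 counts per ESC library. In NPCs it stood at 0.707, 0.513 and 0.615 CPM in WT and 1.16, 1.91 and 1.85 CPM in slow/slow libraries, and among PSA-NCAM+ libraries at 1.46, 1.77 and 2.17 and 2.33, 8.11 and 9.88 CPM. The groups did not overlap, with changes of 1.40 ± 0.40 (FDR = 0.00555) in NPCs and 1.94 ± 0.32 (FDR = 4.35e-05) in PSA-NCAM+ cells, the latter 2.36 (FDR = 1.21e-10) without slow/slow replicate 1, which was the lowest of its group. In neurons the groups overlapped at 126, 113 and 115 CPM in WT and 140.1, 118 and 115 CPM in slow/slow libraries, a change of 0.07 ± 0.29 (FDR = 0.851) with a 95% interval from -0.52 to 0.67.

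Slc1a3, the other glial glutamate transporter and the more prominent in radial glia, changed direction with the stage. In ESCs it stood at 4.54, 3.73 and 3.56 CPM in WT and 2.85, 2.45 and 2.32 CPM in slow/slow libraries, with the latter all lower. In NPCs it stood at 11.2, 11.1 and 10.3 CPM in WT and 19.7, 20.7 and 18.9 CPM in slow/slow libraries, and in PSA-NCAM+ cells at 12.3, 7.78 and 7.10 and 33.1, 19.3 and 17.9 CPM. The change was -0.63 ± 0.22 (FDR = 0.0273) in ESCs, and slow/slow cells were higher in NPCs by 0.86 ± 0.20 (FDR = 0.000922) and at the PSA-NCAM+ stage by 1.36 ± 0.20 (FDR = 8.21e-06), with no overlap of the groups. The ESC call was lost without WT replicate 1 (change -0.50, FDR = 0.131), slow/slow replicate 2 (-0.59, FDR = 0.0880) or slow/slow replicate 3 (-0.57, FDR = 0.0936). In neurons Slc1a3 stood at 136, 165 and 141 CPM in WT and 74.8, 84.0 and 81.9 CPM in slow/slow libraries, all slow/slow libraries being lower, with a change of -0.88 ± 0.19 (FDR = 0.000669). Slc1a3 lies on chromosome 15, whose 638 tested genes had median changes of -0.60, -0.57, -0.57 and -0.08 at the 4 stages from ESCs to neurons, against medians of -0.02, 0.01, -0.01 and -0.06 over all genes tested. The part of this shift in the values of Slc1a3 was not tested. In ESCs the change of Slc1a3 was close to the chromosome median, in NPCs and PSA-NCAM+ cells it went the other way, and in neurons the chromosome median was near that of all genes.

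Glul was among the highest genes of the set at every stage, and its difference between genotypes turned from higher to lower. In ESCs it stood at 92.2, 94.4 and 103 CPM in WT and 155, 177 and 164 CPM in slow/slow libraries, and in NPCs at 242, 262 and 248 and 424, 349.7 and 363 CPM. Slow/slow libraries were above all WT libraries, by 0.78 ± 0.08 (FDR = 1.77e-07) and 0.60 ± 0.08 (FDR = 2.96e-06). In PSA-NCAM+ cells the values were 273, 271 and 255 CPM in WT and 333, 281 and 304 CPM in slow/slow libraries. The difference of 0.20 ± 0.08 (FDR = 0.0342) was small, and the call was lost without WT replicate 3 (0.20, FDR = 0.0608), without slow/slow replicate 1 (0.16, FDR = 0.0759), with DESeq2 size factors, with upper-quartile scaling and in a fit of this stage alone, where the FDR was 0.313. In neurons Glul stood at 285, 309 and 295 CPM in WT and 209.8, 219 and 215 CPM in slow/slow libraries, lower in all slow/slow libraries, with a change of -0.47 ± 0.08 (FDR = 4.84e-05).

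Aldh1l1 was lower in slow/slow cells at all 4 stages. In ESCs it stood at 48.9, 48.8 and 56.8 CPM in WT and 18.7, 17.7 and 18.3 CPM in slow/slow libraries, and in NPCs at 23.9, 23.9 and 22.5 and 12.4, 10.0 and 10.9 CPM. The groups did not overlap, and the changes were -1.50 ± 0.15 (FDR = 1.46e-07) and -1.07 ± 0.15 (FDR = 5.53e-06). In PSA-NCAM+ cells the values were 21.2, 22.5 and 22.3 CPM in WT and 9.07, 5.40 and 6.23 CPM in slow/slow libraries, and in neurons 28.2, 35.3 and 32.4 and 6.03, 8.15 and 7.65 CPM. Slow/slow libraries were again lower without overlap, with changes of -1.68 ± 0.15 (FDR = 2.03e-08) and -2.13 ± 0.15 (FDR = 1.03e-09). Every WT ESC library was above every WT neuron library in Aldh1l1 CPM.

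Gfap was low throughout, at 4 to 142 counts per library. In neurons it stood at 1.20, 2.15 and 1.37 CPM in WT libraries (78, 134 and 142 counts) and 0.0894, 0.162 and 0.164 CPM in slow/slow libraries (6, 13 and 6 counts). Every slow/slow library lay far below every WT library, and Gfap was 11.3-fold lower, a change of -3.50 ± 0.45 (FDR = 2.38e-06). In NPCs the values were 0.686, 0.785 and 0.780 CPM in WT and 1.64, 1.41 and 1.53 CPM in slow/slow libraries, without overlap and with a change of 1.02 ± 0.38 (FDR = 0.0271). That call held only without slow/slow replicate 2 (FDR = 0.0411) among the fits that left out 1 library, in which the change stayed between 0.97 and 1.09 and the FDR reached 0.0728 without WT replicate 1, 0.0565 without WT replicate 2, 0.0570 without WT replicate 3, 0.0682 without slow/slow replicate 1 and 0.0515 without slow/slow replicate 3. In PSA-NCAM+ cells the groups overlapped, at 0.174, 0.370 and 0.358 CPM in WT and 0.0817, 0.576 and 0.524 CPM in slow/slow libraries, and the change was 0.50 ± 0.42 (FDR = 0.327), but 0.94 (FDR = 0.00987) without slow/slow replicate 1, which held 4 counts. In ESCs the change of 0.75 ± 0.45 (FDR = 0.204) did not pass the test, though it did in a fit of the ESC libraries alone (FDR = 0.0340).

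Aqp4 had 0 counts in all 6 ESC libraries and 0 to 8 counts in NPCs, so no change is given for ESCs. In neurons it stood at 1.34, 1.86 and 1.41 CPM in WT libraries (87, 116 and 146 counts) and 3.43, 3.86 and 3.21 CPM in slow/slow libraries (230, 310 and 117 counts). The groups did not overlap, and the change of 1.19 ± 0.45 (FDR = 0.0352) was opposite in sign to that of Gfap. The call was lost when any 1 of the 6 neuron libraries was left out, with changes of 1.09 to 1.35 and FDR values of 0.112, 0.0522 and 0.106 without WT replicates 1, 2 and 3 and 0.0742, 0.0992 and 0.0609 without slow/slow replicates 1, 2 and 3. In NPCs and PSA-NCAM+ cells Aqp4 did not differ by the test, with changes of -0.91 ± 0.87 (FDR = 0.388) and -0.43 ± 0.64 (FDR = 0.593).

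S100b was at the limit of detection. WT neurons held 9, 6 and 17 counts (0.138, 0.0963 and 0.164 CPM) and slow/slow neurons 6, 5 and 0 counts (0.0894, 0.0622 and 0 CPM), PSA-NCAM+ libraries held 2 to 9, and ESC and NPC libraries 0 to 2. In CPM every WT neuron library was above every slow/slow one, but in counts the groups met at 6, and the gene did not pass the filter for a test.

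Counted over the set, the 9 tested genes were more often higher than lower in slow/slow progenitors. In ESCs 2 were higher and 2 lower, where 18.5% of all genes tested were higher and 21.9% lower. In NPCs 7 were higher and 1 lower, against 29.3% and 27.4% of all genes, and in PSA-NCAM+ cells 6 were higher and 1 lower, against 28.6% and 28.1%. In neurons 2 were higher and 4 lower, against 23.4% and 28.4%. The median change of the 9 genes was 0.70, 0.86, 0.74 and -0.11 from ESCs to neurons, while the medians of all genes lay between -0.06 and 0.01. In ESCs that median is the value of Slc1a2, which was not called and held 4 to 11 counts per library. The ESC values also include Aqp4, with 0 counts, and Gfap and Fabp7, which were not called there. Upper-quartile scaling moved the median change of all genes in neurons by 0.14 and the share of called genes that were higher from 45.2% to 59.2%. All 6 neuron calls of the set kept their direction and stayed called under that scaling.

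**Figure D2:**
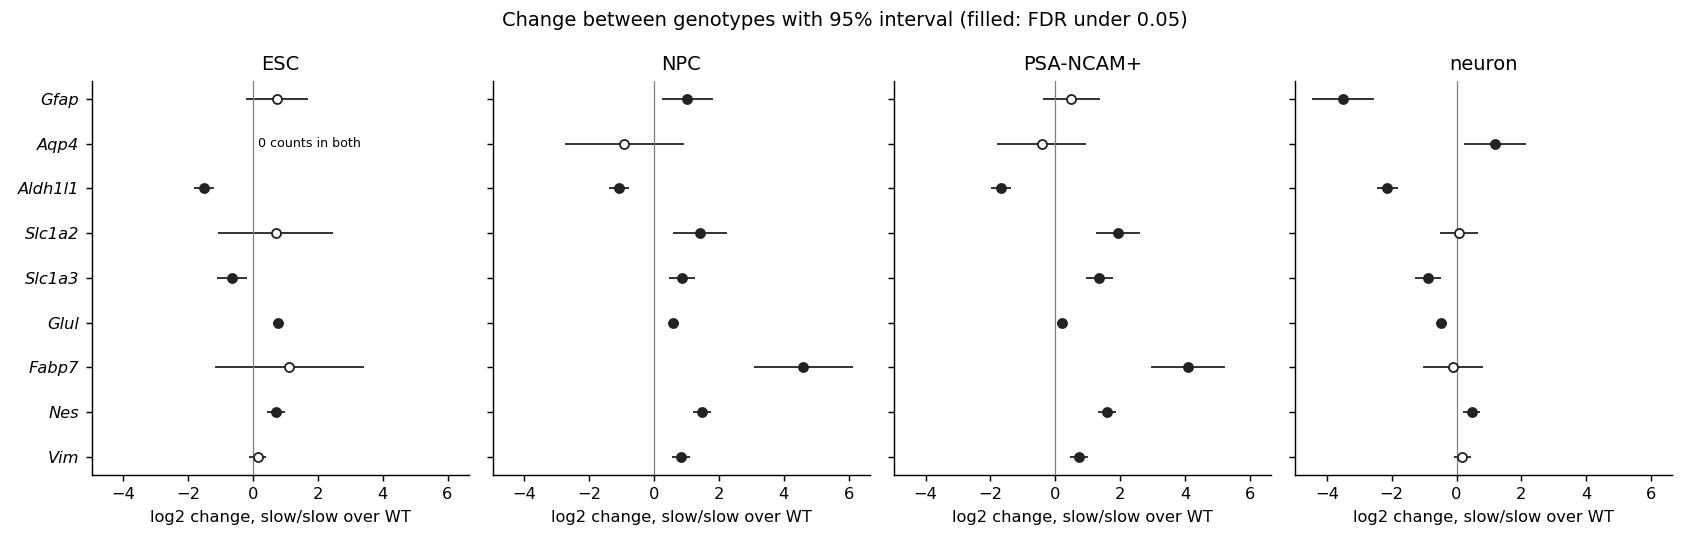
Change of 9 genes between genotypes at each stage, as log2 of slow/slow over WT, with 95% intervals and filled points for an FDR under 0.05 by edgeR's quasi-likelihood test. Fabp7 lies beyond 4 in NPCs and PSA-NCAM+ cells and near 0 in neurons, Gfap lies at -3.50 in neurons, and Aldh1l1 lies below 0 in all 4 panels. Aqp4 had 0 counts in ESCs.

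The course of each gene over the stages was then compared within a genotype. From ESCs to NPCs, 6 genes rose and 2 fell in WT cells, and 6 rose and 1 fell in slow/slow cells (34.0% and 31.6% of all genes tested in WT, 33.9% and 28.4% in slow/slow cells). Glul rose by 1.38 ± 0.08 (FDR = 1.1e-11) in WT and 1.19 ± 0.08 (FDR = 6.48e-11) in slow/slow cells, and Aldh1l1 fell in both, with changes of -1.14 ± 0.15 (FDR = 1.13e-06) and -0.71 ± 0.15 (FDR = 0.000318). Fabp7 rose in slow/slow cells by 3.59 ± 0.70 (FDR = 0.000158), and its change in WT cells was 0.11 ± 1.19 (FDR = 0.945). The difference between these courses was 3.48 ± 1.49 (FDR = 0.095) and was not called, although a fit of these 4 groups alone gave 3.41 (FDR = 0.000493) and the DESeq2 Wald test 3.40 (FDR = 0.00158). The courses of Slc1a3 and Nes did differ, with steeper rises in slow/slow cells by 1.50 ± 0.30 (FDR = 0.000989) and 0.79 ± 0.19 (FDR = 0.00417). That of Vim also differed, by 0.69 ± 0.19 (FDR = 0.0099), since Vim fell in WT cells, with a change of -0.51 ± 0.13 (FDR = 0.00223), and its change in slow/slow cells, 0.19 ± 0.13 (FDR = 0.224), did not pass the test. The fit of these groups alone called Aldh1l1 and Glul as well. The 3 of 9 genes compare with 24.6% of all genes tested, in either direction.

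From NPCs to PSA-NCAM+ cells, 4 genes rose and 1 fell in WT cells, and 4 rose and 3 fell in slow/slow cells (21.8% and 19.5% of all genes in WT, 22.5% and 19.8% in slow/slow cells). Vim rose by 1.83 ± 0.14 (FDR = 9.67e-09) in WT and 1.74 ± 0.14 (FDR = 2.57e-08) in slow/slow cells and Nes by 1.33 ± 0.13 (FDR = 3.65e-07) and 1.44 ± 0.13 (FDR = 1.64e-07). Gfap fell in both, with changes of -1.35 ± 0.42 (FDR = 0.0134) and -1.88 ± 0.39 (FDR = 0.000773), the WT call being lost without WT PSA-NCAM+ replicate 1 (-1.04, FDR = 0.0694). The rise of Fabp7 in WT cells, 2.64 ± 0.82 (FDR = 0.0141), was lost without WT NPC replicate 2 (2.18, FDR = 0.0652). Slc1a3 was called lower in WT PSA-NCAM+ cells without replicate 1 (-0.55, FDR = 0.0283), whereas with it the change was -0.26 ± 0.20 (FDR = 0.311). Of the 9 genes only Glul was called for a difference between the courses, -0.40 ± 0.11 (FDR = 0.02), where 14.6% of all genes were. That call was lost without WT NPC replicate 1 (FDR = 0.0640) or 3 (FDR = 0.0586), slow/slow NPC replicate 1 (FDR = 0.0878) or slow/slow PSA-NCAM+ replicate 2 (FDR = 0.0589). Without slow/slow PSA-NCAM+ replicate 1, Aldh1l1 (-0.83, FDR = 0.000855) and Slc1a2 (0.96, FDR = 0.0170) passed as well, and without WT PSA-NCAM+ replicate 1 Slc1a3 did (0.79, FDR = 0.0337). The fall of Glul in slow/slow cells, -0.31 ± 0.08 (FDR = 0.00353), was lost without slow/slow NPC replicate 1 (-0.19, FDR = 0.0646), and in a fit of NPCs and PSA-NCAM+ cells alone the slow/slow calls of Glul, Gfap, Aldh1l1 and Fabp7 were lost.

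From NPCs to neurons, all 9 tested genes rose in WT cells, where 41.4% of all genes rose and 38.9% fell. In slow/slow cells 6 rose and 3 fell, where 38.4% of all genes rose and 36.6% fell. Fabp7 rose by 11.52 ± 0.76 (FDR = 1.67e-11) in WT and 6.80 ± 0.58 (FDR = 1.61e-09) in slow/slow cells. Slc1a2 rose by 7.60 ± 0.41 (FDR = 5.83e-13) in WT and 6.27 ± 0.37 (FDR = 7.03e-12) in slow/slow cells. Slc1a3 rose by 3.76 ± 0.21 (FDR = 1.39e-12) and 2.02 ± 0.20 (FDR = 1.26e-08), and Nes by 3.00 ± 0.14 (FDR = 6.38e-14) and 1.98 ± 0.13 (FDR = 4.37e-11). Gfap, Aldh1l1 and Glul rose in WT and fell in slow/slow cells. Gfap changed by 1.06 ± 0.38 (FDR = 0.0143) in WT and -3.47 ± 0.46 (FDR = 8.56e-07) in slow/slow cells, Aldh1l1 by 0.45 ± 0.15 (FDR = 0.00814) and -0.61 ± 0.15 (FDR = 0.001), and Glul by 0.24 ± 0.08 (FDR = 0.00792) and -0.82 ± 0.08 (FDR = 8.59e-09). The WT rises of these 3 genes were lost without WT neuron replicate 2 (Gfap 0.74, FDR = 0.103, Aldh1l1 0.34, FDR = 0.0659, Glul 0.18, FDR = 0.0640). Under upper-quartile scaling, which moved the median of all genes in this WT comparison by -0.28, Gfap (0.78, FDR = 0.0599) and Aldh1l1 (0.17, FDR = 0.281) lost the call and Glul turned to -0.034. The slow/slow falls held in every fit.

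**Figure D3:**
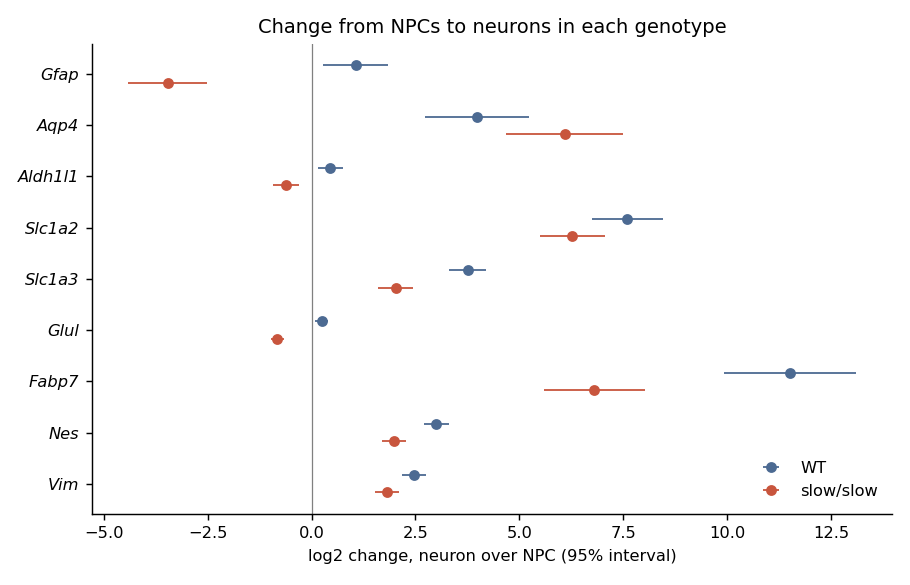
Change of 9 genes from NPCs to neurons, as log2 of neuron over NPC with 95% intervals, in WT (blue) and slow/slow cells (red). All WT points lie above 0, and Gfap, Aldh1l1 and Glul lie below 0 in slow/slow cells.

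The test of the difference between these 2 courses called 8 of the 9 genes, where 55.1% of all genes tested were called in either direction. In all 8 the estimate was below 0, which is a smaller rise or a fall in slow/slow cells, with -4.71 ± 0.88 (FDR = 0.000146) for Fabp7, -4.53 ± 0.59 (FDR = 2.81e-06) for Gfap, -1.74 ± 0.27 (FDR = 2.31e-05) for Slc1a3 and -1.33 ± 0.49 (FDR = 0.0276) for Slc1a2. The Slc1a2 call was lost without WT NPC replicate 2 (FDR = 0.0732) or 3 (FDR = 0.0524) and without slow/slow NPC replicate 2 (FDR = 0.0688) or 3 (FDR = 0.0630), and under upper-quartile scaling (-1.14, FDR = 0.0569). Aqp4 alone had an estimate above 0, 2.11 ± 0.98 (FDR = 0.0793), which was not called there but was by the DESeq2 Wald test (FDR = 0.0369) and in a fit of these 4 groups alone (FDR = 0.00871). The slow/slow NPC level of Fabp7, Slc1a2, Slc1a3, Nes and Vim was above the WT level, so a smaller rise began from a higher start in those 5 genes. For Gfap, Aldh1l1, Slc1a3 and Glul the neuron level itself was lower in slow/slow cells.

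Other genes of these cells were taken from lists and described by counts, to be read against the shares of all genes tested, which were 29.3% higher and 27.4% lower in slow/slow NPCs, 28.6% and 28.1% at the PSA-NCAM+ stage and 23.4% and 28.4% in neurons. Of 14 radial glia and neural stem cell genes 13 were tested. Slow/slow NPCs had 6 higher and 3 lower, PSA-NCAM+ cells 7 and 1, and neurons 8 and 2, with medians of 0.17, 0.49 and 0.60. Pax6, a transcription factor of dorsal radial glia, was higher at the 3 later stages, by 3.25 ± 0.26 (FDR = 4.44e-09), 3.87 ± 0.26 (FDR = 5.16e-10) and 2.72 ± 0.25 (FDR = 2.31e-08) in turn. Hes5, a target of Notch signalling, was higher by 1.63 ± 0.31 (FDR = 0.000161), 4.63 ± 0.28 (FDR = 1.32e-10) and 2.81 ± 0.23 (FDR = 6.87e-09). Lhx2, a cortical progenitor factor, was higher by 3.13 ± 0.21 (FDR = 4.34e-10) in neurons.

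Of 19 mature astrocyte genes 18 were tested. Slow/slow NPCs had 5 higher and 10 lower, PSA-NCAM+ cells 6 and 9, and neurons 3 and 7, with medians of -0.81, -0.42 and -0.26, and in neurons 23.4% of all genes were higher and 28.4% lower. In neurons Mlc1, a membrane protein of astrocyte endfeet, was lower, at -3.79 ± 0.38 (FDR = 9.72e-08), as was Slc39a12, a zinc transporter, at -3.37 ± 0.41 (FDR = 9.93e-06). Gjb6, which codes for the gap junction protein connexin 30, was higher by 5.82 ± 0.45 (FDR = 9.25e-09). In NPCs Apoe, an apolipoprotein made by astrocytes and many other cells, was lower, at -2.28 ± 0.16 (FDR = 1.38e-09) and Sparcl1, a secreted glycoprotein, was higher by 2.14 ± 0.29 (FDR = 4.19e-06). From NPCs to neurons of WT cells 9 of the 18 genes rose and 5 fell, with a median change of 1.51, although the summed level of the list was higher in NPCs (2483 to 2711 CPM) than in neurons (663 to 773 CPM).

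Of 15 gliogenic factors and signalling genes, 6 were higher and 5 lower in slow/slow NPCs, 4 and 3 among PSA-NCAM+ cells and 7 and 4 among neurons, with medians of -0.35, 0.17 and 0.05, and several of these counts are near the shares of all genes, 28.6% higher at the PSA-NCAM+ stage and 28.4% lower in neurons. Nfix, a nuclear factor I gene, was lower at these 3 stages, at -2.19 ± 0.21 (FDR = 4.79e-08), -1.59 ± 0.20 (FDR = 1.88e-06) and -1.64 ± 0.20 (FDR = 9.65e-07) in turn. Nfib, of the same family, was higher by 1.29 ± 0.21 (FDR = 2.77e-05) in NPCs and lower, at -1.88 ± 0.20 (FDR = 2.32e-07) in neurons. Id1, an inhibitor of helix-loop-helix factors and a target of BMP signalling, was higher by 1.91 ± 0.18 (FDR = 4.24e-08) in neurons. Of 10 reactive astrocyte genes 9 were tested, and in neurons 3 were higher and 2 lower with a median of -0.13, Cxcl10, a chemokine, being higher by 2.56 ± 0.78 (FDR = 0.00944) and Cp, ceruloplasmin, lower, at -2.11 ± 0.33 (FDR = 1.97e-05).

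Of 12 further genes of glutamate and glutamine handling, 1 was higher and 5 lower in slow/slow neurons, with a median of -0.31. Slc1a4, a neutral amino acid transporter, was lower, at -1.84 ± 0.10 (FDR = 2.81e-11) and Slc1a1, the neuronal glutamate transporter gene, at -1.41 ± 0.23 (FDR = 3.1e-05). Of 11 other intermediate filament and linker genes, 4 were higher and 2 lower in neurons (median 0.95). Nefh, the heavy neurofilament, went against that median and was lower, at -2.34 ± 0.36 (FDR = 2.01e-05). Of 10 relatives of Fabp7 and S100b, 5 were higher and 0 lower in neurons (median 1.07), among them Fabp4, found in adipocytes and endothelium, by 5.61 ± 0.67 (FDR = 1.79e-06). Fabp4 held at most 3 counts in every WT neuron library, so the size of that change is uncertain.

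**Figure D4:**
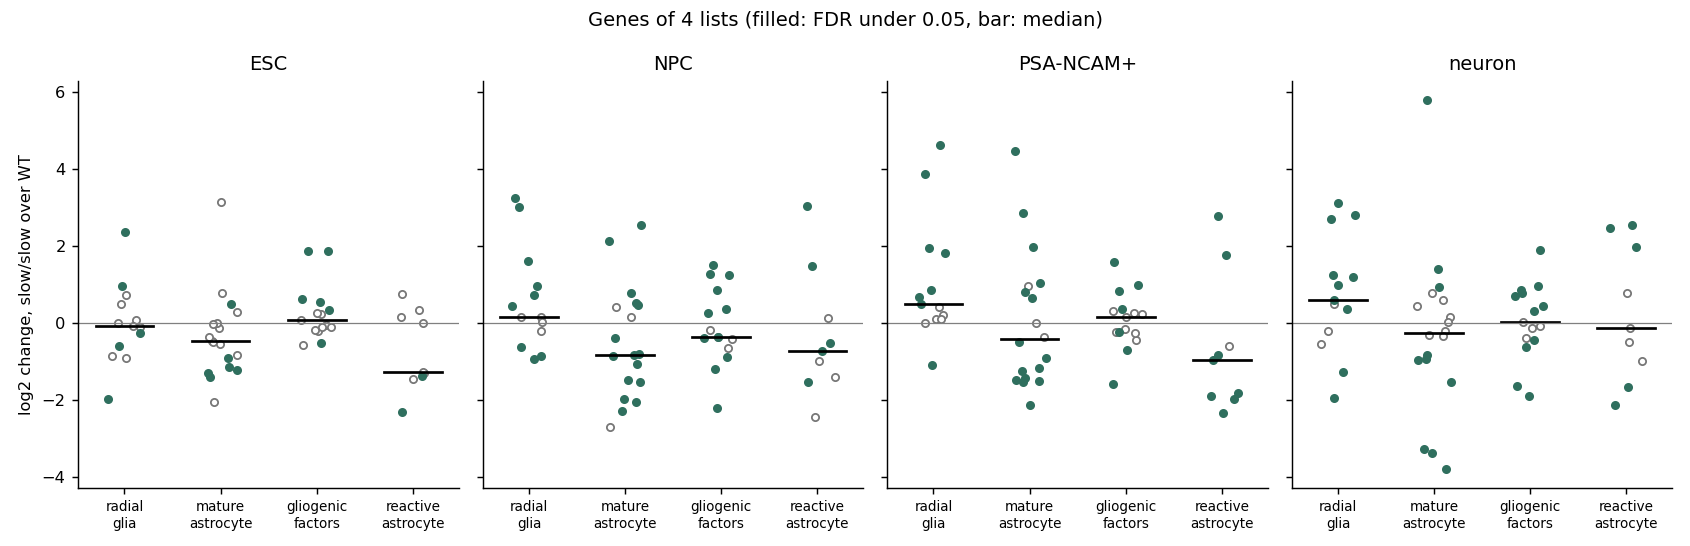
Change of each tested gene of 4 lists between genotypes, as log2 of slow/slow over WT, at the 4 stages. Filled points have an FDR under 0.05 and bars are medians. The radial glia bar rises from -0.08 in ESCs to 0.60 in neurons, while the mature and reactive astrocyte bars are below 0 in every panel.

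Markers of other cell types moved with genotype in the neuron cultures, and their part in the results above was not tested. In these cultures 23.4% of all genes tested were higher and 28.4% lower in slow/slow cells. All 5 endothelium markers were higher in slow/slow neurons, with a summed level of 11.3 to 14.3 CPM in WT and 102 to 128 CPM in slow/slow libraries, and Cdh5, the endothelial cadherin, was higher by 4.65 ± 0.34 (FDR = 1.55e-09). Of 8 mesenchyme and smooth muscle markers 6 were higher and 2 lower, and the sum stood at 349 to 472 CPM in WT and 643 to 680.0 CPM in slow/slow libraries. Vim and Nes are also expressed in such cells. Of 7 endoderm markers 6 were higher and 1 lower, with overlapping sums of 49.6 to 57.8 and 48.1 to 68.9 CPM. Of the 6 pluripotency markers 3 were higher and 1 lower, although their sum was lower, at 80.8 to 84.0 CPM in slow/slow and 103.8 to 132 CPM in WT libraries. Of 8 neuron markers 0 were higher and 4 lower, and the sum stood at 2716 to 2855 CPM in slow/slow neurons. The sums of 8 oligodendrocyte lineage markers overlapped, at 77.2 to 98.2 CPM in WT and 57.1 to 82.2 CPM in slow/slow libraries. Of these markers 4 were higher and 2 lower, with a median change of 0.53. The 2 lower genes, against that median, were Olig1, at -7.36 ± 0.35 (FDR = 5.62e-12), and Olig2, at -4.69 ± 0.44 (FDR = 4.12e-08). Microglia markers (2 of 5 tested, both higher) summed to at most 9.46 CPM in neurons, and ependyma markers (2 of 4 tested, 0 higher, 1 lower) to 40.5 to 42.1 CPM in WT and 4.44 to 5.87 CPM in slow/slow neurons.

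In progenitors the marker lists were counted too, to be read against the shares of all genes tested. These were 29.3% higher and 27.4% lower in slow/slow NPCs and 28.6% and 28.1% at the PSA-NCAM+ stage. Of the 8 neuron markers 6 were higher and 0 lower in slow/slow NPCs and all 8 were higher at the PSA-NCAM+ stage, and of the 6 pluripotency markers 5 and 4 were lower at these stages. In slow/slow NPCs 5 of 8 oligodendrocyte lineage markers were lower and 1 higher, 4 of 8 mesenchyme markers were lower and 1 higher, both ependyma markers tested were lower, and 2 of 7 endoderm markers were higher. The mesenchyme sum stood at 441 to 501 CPM in WT and 209 to 301 CPM in slow/slow NPCs. Of the 5 endothelium markers 1 was higher and 1 lower in NPCs and 2 were lower at the PSA-NCAM+ stage, and the sum stood at 81.8 to 88.3 CPM in WT and 26.0 to 34.9 CPM in slow/slow NPCs and at 60.1 to 65.9 and 18.5 to 31.0 CPM at the later stage. Among PSA-NCAM+ cells 3 mesenchyme markers were higher and 2 lower and 2 oligodendrocyte lineage markers were higher. The counts of endoderm and endothelium markers in NPCs and of oligodendrocyte lineage markers at the PSA-NCAM+ stage were near or below the shares of all genes. Any part of the marker differences in the higher Fabp7, Nes, Slc1a2 and Slc1a3 of slow/slow progenitors was not tested.

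Splicing of the 10 genes was read from the percent of transcripts that include an exon, intron or splice site (PSI). The table held 105 events in the 10 genes, of which 75 passed the filters at a stage at least, none of them in Gfap, Aqp4 or S100b. The events tested numbered 40, 34, 36 and 51 from ESCs to neurons. An event was called where mean PSI differed by over 10 points with a posterior probability of the sign over 0.95. There were 0 calls in ESCs, where 0.177% of all events were called (0.0912% higher and 0.0862% lower). There were also 0 in NPCs and PSA-NCAM+ cells, where 0.840% and 0.242% were called, and 1 in neurons, where 0.795% were (0.442% higher and 0.353% lower). By limma on the logit of the reads, with and without read-based weights, there were 0 calls in the genes of the set at these 3 stages. Without weights limma called very few of all events in neurons, as given below, so 0 calls without weights say little.

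The called event was the Slc1a2 exon whose sequence is shown above. In neurons its PSI was 7.23, 6.33 and 6.63 in WT libraries and 29.7, 22.1 and 32.7 in slow/slow libraries, with 66 to 149 reads per library. All slow/slow libraries were above all WT libraries, with means of 6.73 ± 0.46 (SD, n = 3) and 28.2 ± 5.5 (SD, n = 3), a difference of 21.4 points. The call held without any 1 of the 6 libraries. With limma on the logit of the reads, the difference had an FDR of 0.101 without weights, where 5 events of 163184 were called, and of 0.00435 with read-based weights, where 1223 were. The level of Slc1a2 itself did not differ by the test in these libraries, and at the earlier stages the exon lacked the reads to be tested.

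The exon is annotated in GENCODE transcript Slc1a2-212 at chr2:102780717-102780787 of GRCm38, and was matched to the deposited mm9 event by its length of 71 bases and its distances of 3061 and 675 bases to the neighbouring exons. It follows the exon of 229 bases, adds 33 coding bases (11 codons) and then ends the reading frame with the stop codon shown in capitals. Without it, transcript Slc1a2-202 reads on into the last exon for 69 coding bases (23 codons). Inclusion therefore changes the annotated end of the transporter's coding sequence. Among the other events, introns of Nes were retained at up to 22.0% in a PSA-NCAM+ library and differed by less than 6 points between genotypes, and none of the events in Vim was called.

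**Figure D5:**
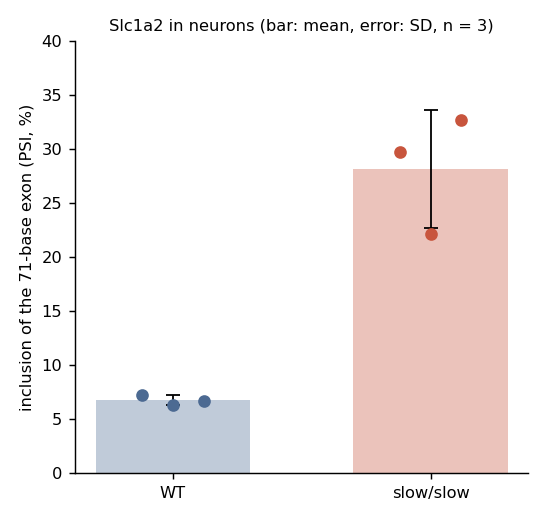
Inclusion of the 71-base Slc1a2 exon in neurons, as PSI in percent, with bars for means, error bars for SD and points for the 3 libraries of each genotype. The WT libraries lie between 6.33 and 7.23 and the slow/slow libraries between 22.1 and 32.7.

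The patterns of the 9 tested genes over the 24 libraries were compared as a description, since all share the same libraries and stages. Slc1a2 and Fabp7 had a Pearson correlation of log2 CPM of 0.97, Slc1a2 and Slc1a3 of 0.94, and Nes and Vim of 0.91. Gfap was nearest to Prr19 (0.88), Ccdc135 (0.86) and Actr3b (0.86) among all genes tested. Aqp4 was nearest to Ndst3, Cdh12 and Col15a1 (0.96 each), and Aldh1l1 to Calml4 (0.97), Atp6v1c1 (0.94) and Atp6v1d (0.94). Fabp7 was nearest to Pcdhb11, Gm9996 and Dcx (0.99 each), Slc1a2 to Ebf3, Esrrg and Crb1 (0.99 each), and Slc1a3 to Slc8a3, Dlgap4 and 0610010F05Rik (0.98 each). Nes was nearest to Sec63 (0.99), Pcdhb22 (0.98) and Gdf10 (0.98), Vim to Pdzrn3 (0.97), Midn (0.96) and Nts (0.94), and Glul to Epha1 (0.96), Spry4 (0.95) and Zfp54 (0.94).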

How the data were processed

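Poly(A) RNA of 24 libraries was sequenced and mapped to mm9. The authors deposited read counts per gene, mean RPKM per group, and splicing tables made with vast-tools, which hold PSI in percent with a quality score carrying the inclusion and exclusion reads. The processing notes name bcl2fastq 2.17.1.14 and edgeR. Columns of the authors' own log2 fold changes and FDR values were not used. Libraries of ESCs, NPCs and neurons came from 3 independent differentiation experiments, which was not stated for PSA-NCAM+ cells, so p-values there may measure technical spread only.

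Counts were tested with edgeR 4.0.16 in R 4.3.3 (filterByExpr with a minimum count of 10, TMM, quasi-likelihood test, FDR under 0.05 over 16627 of 21553 genes with counts, and 1114 listed genes had no values). The SE is the log2 change divided by the square root of F. A library of these totals limits precision, since Gfap, Aqp4 and S100b have few counts. PSI was tested through beta posteriors of the reads of each replicate, and with limma 3.58.1. Alternatives were DESeq2 1.42.0, other scalings, no filter, a replicate block, fits of the compared groups alone and fits leaving out each library. Scripts were tested on simulated data. The members, lists and markers were chosen with earlier results of these data known, and all members are named, and of each list at most the 3 called genes with the largest change in a comparison, a gene so chosen being given at other stages too. Same-numbered libraries deviated together in PSA-NCAM+ cells only (correlations 0.40 to 0.54 for the 3 pairs, against -0.08 to 0.07 at other stages), so the numbers pair the libraries there. Gene coordinates are from GENCODE vM21 on GRCm38, and event coordinates in mm9 were matched by exon and intron lengths.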

Additional observations from a re-analysis of the deposited data

Results flagged for a closer look

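The genotype effect differed between stages for 12 gene and stage pairs, by edgeR's test of the interaction of genotype and stage, given as the log2 change of slow/slow over WT at the later stage minus that at the earlier stage, ± SE. Of all genes tested, 24.6% were called in this way between ESCs and NPCs, 14.6% between NPCs and PSA-NCAM+ cells and 55.1% between NPCs and neurons. Between ESCs and NPCs it differed for Slc1a3 by 1.50 ± 0.30 (FDR = 0.000989), for Nes by 0.79 ± 0.19 (FDR = 0.00417) and for Vim by 0.69 ± 0.19 (FDR = 0.0099). Between NPCs and PSA-NCAM+ cells it differed for Glul, at -0.40 ± 0.11 (FDR = 0.02). Between NPCs and neurons it differed for Gfap (-4.53 ± 0.59, FDR = 2.81e-06), Fabp7 (-4.71 ± 0.88, FDR = 0.000146), Slc1a3 (-1.74 ± 0.27, FDR = 2.31e-05) and Slc1a2 (-1.33 ± 0.49, FDR = 0.0276). It also differed between these stages for Glul (-1.06 ± 0.11, FDR = 1.66e-07), Aldh1l1 (-1.06 ± 0.21, FDR = 0.000253), Nes (-1.02 ± 0.18, FDR = 0.000103) and Vim (-0.65 ± 0.19, FDR = 0.00586). Gfap, Slc1a3 and Glul had called genotype effects of opposite sign in NPCs and neurons. The NPC call of Gfap held in only 1 of the 6 fits that left out 1 library.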

How the results depend on the processing

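Of 222 comparisons of a count of calls with its value under an alternative, 210 stayed within 1.5 times, and of 1593 values of single genes 1532 stayed on their side of the threshold, 41 lost the call and 19 gained it. Of the 513 that belong to results without a call 15 changed sign, in 8 results, among them Fabp7 between genotypes in neurons (0.031 under upper-quartile scaling). Of the 1080 that belong to called results 1 changed sign, Glul from WT NPCs to neurons under upper-quartile scaling (-0.034). Fits of the compared groups alone gave 3 calls from NPCs to PSA-NCAM+ cells in slow/slow cells, in place of 7, and 6 interaction calls between ESCs and NPCs, in place of 3. The 1 interaction call between NPCs and PSA-NCAM+ cells became 0 with those groups alone and 2 by the DESeq2 Wald test, and ranged from 0 to 3 when 1 library was left out. The cause of these shifts was not tested. The 1 splicing call in neurons became 0 by limma without weights, also with the replicate block, and stayed 1 by limma with read-based weights, with and without the block, weights that were chosen after seeing the data. The replicate block, over all libraries or within each stage (the latter added after seeing the data), changed no call of a gene of the set, and the pairing held only in PSA-NCAM+ cells, where the blocked fit kept Glul (0.20, FDR = 0.0428) among its 7 calls. Outside PSA-NCAM+ cells 1 of 9 pairs correlated best with their own number. Upper-quartile scaling turned the share of higher genes among all called genes from 51.6% to 42.3% between WT NPCs and neurons and from 44.9% to 57.3% in the interaction with genotype there. Counts of at most 17 for S100b and 8 for Aqp4 in NPCs limit what could be detected, and without the filter S100b was called higher in WT neurons than NPCs (2.20, FDR = 0.00940).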
